A study of Rattus norvegicus with 15 samples.

Results

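The comparison described here set 8 libraries of operated rats that had received plasma-derived mitochondria (pMT) against 5 libraries of operated rats that had not, out of 15 libraries in the study. The members were taken from the group labels alone: 4 libraries labelled pMT and 4 labelled pMT/VitD formed the pMT arm, and 2 labelled Surgery and 3 labelled VitD formed the arm without pMT. Whether a rat had received vitamin D was carried as a covariate, so that the difference between the arms was estimated among rats of like vitamin D status. All rats were wild-type male Sprague Dawley rats, given as 12 weeks old and 340 to 370 g in weight when divided into groups. RNA came from the multifidus, a deep back muscle that stabilises the lumbar spine. In the 4 operated groups, vertebral bone over the lower lumbar spine had been removed and the left L5 spinal nerve ligated and cut, an injury that takes the nerve supply from part of the muscle. Rats of the pMT and pMT/VitD groups were injected in the left paraspinal muscle at 2 sites, between L4 and L5 and between L5 and L6, with 25 µg of mitochondria in 100 µL per site (50 µg per rat). In the study's timeline pMT was injected 2 weeks after the operation, and muscle was taken 2 weeks after that. The days of VitD treatment are not given in the sources used here. The mitochondria had been isolated from human blood plasma, so their own DNA and RNA are human, and the reads were counted on the rat genome. VitD and pMT/VitD rats received cholecalciferol, the form of vitamin D made in skin, at 150 µg (6000 IU) per site (300 µg per rat). The Surgery group received nothing after the operation, so between pMT and Surgery the mitochondria cannot be told apart from the injection and its buffer. A further 2 libraries from uninjured rats, labelled Control, entered the scaling and are given as a reference level, but not the test.

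When a skeletal muscle loses its nerve, it re-expresses genes of immature muscle, among them embryonic myosin and the fetal subunit of the acetylcholine receptor, and spreads receptors over the fibre surface. Macrophages enter, fibroblasts lay down collagen, and fibres lose mass. Mitochondria supply fibres with ATP by oxidative phosphorylation, whose complexes are built from subunits encoded in the nucleus and, for a few, in the mitochondrial genome itself.

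Total counts ranged from 52342134 to 73557878 per library, and the pMT arm (median 59729174.5) was the shallower of the arms (median 69303658 without pMT). On a principal component analysis of the 7792 genes used for it, the first component (46.1% of variance) held the pMT libraries between 1.0 and 24.4 and the others between -35.7 and -10.0. The arms therefore did not overlap on this axis. Several libraries stood apart within their group. Library pMT 4 lay beside pMT/VitD 1 and 2, pMT/VitD 4 lay beside pMT 2 and 3, and VitD 1 lay at the far end of the first component. The labels were kept as given, and whether the libraries numbered 4 of pMT and pMT/VitD were exchanged was not tested. Both belong to the pMT arm, but an exchange would change the values with and without VitD and the interaction. Libraries also differed in their relation to gene length. Spearman's rho across genes, between each library's deviation and transcript length, was -0.388, -0.379 and -0.318 in pMT/VitD 1, pMT/VitD 2 and pMT 4, which were low on the second component (32.3%), and 0.451 and 0.357 in pMT 3 and pMT 2, which were high on it. It did not follow that component throughout: VitD 1, lowest on it, had a rho of -0.027, and VitD 3, near its middle, 0.312. Within groups, all pairs of libraries differed by more than sampling noise. Surgery 1, Surgery 2 and VitD 2 were still closer to each other than any other libraries were. The standard deviation of log2 differences over abundant genes was 0.063 between Surgery 1 and 2. It was 0.083 between Surgery 2 and VitD 2 and 0.108 between Surgery 1 and VitD 2, against 0.136 between the 2 Controls. These libraries make up most of the arm without pMT, and why they were so alike was not tested. The labels do not say that replicates came from separate rats, and p-values measure the spread between these libraries.

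**Figure D1:**
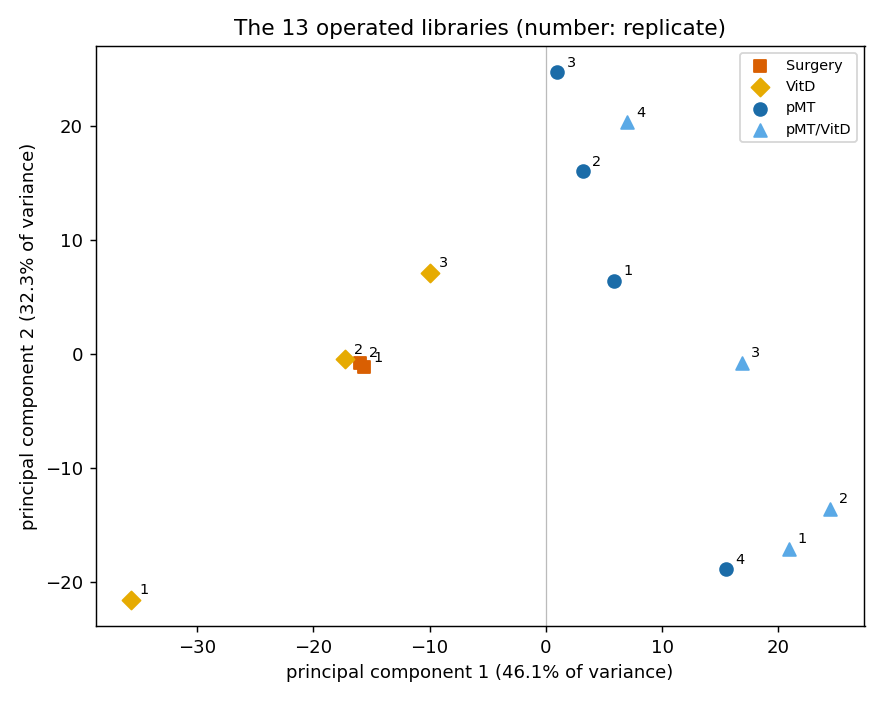
Principal component scores of the 13 operated libraries, with replicate numbers beside the points; component 1 (46.1% of variance) is on the horizontal axis and component 2 (32.3%) on the vertical. All 8 pMT libraries lie at 1.0 or above on component 1 and all 5 without pMT at -10.0 or below, with VitD 1 at -35.7.

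The pMT arm differed from the arm without pMT in 3979 of 17119 tested genes (23.2% of all tested), of which 1582 were higher (9.24%) and 2397 lower (14.0%) at an adjusted p under 0.05. Here and throughout, adjusted p-values come from edgeR's quasi-likelihood F-test with Benjamini-Hochberg adjustment over all tested genes, and "called" means past that threshold. Changes of at least 2-fold were found in 755 called genes, 166 higher and 589 lower. All 8 pMT libraries lay beyond all 5 others in 1967 genes (11.5%), 692 higher (4.04%) and 1275 lower (7.45%). The median log2 fold change over all tested genes was 0.00. Scaling by library size alone shifted that median to -0.24 and gave 433 higher and 4975 lower calls, so directions of small changes are relative to the TMM scale used. With a per-library trend on gene length removed, 2605 genes were higher and 2436 lower. Leaving out VitD 1 lowered the count to 2742, and leaving out pMT 4, pMT/VitD 4 and VitD 1 together gave 3160.

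Leading genes were taken from called genes whose arms did not overlap and whose log2 CPM averaged at least 1, ranked by fold change, and Ankrd1 and Myh3 headed the decreases. Ankrd1 (gene 27064), a stress-responsive repeat protein of the sarcomere, had normalised counts, given as CPM (scaled to the effective library size), from 7.04 to 15.3 in the pMT arm (median 11.2). Without pMT it stood at 245 and 254 in Surgery 1 and 2, and at 760, 268 and 85.0 in VitD 1, 2 and 3. The arms were far apart, the 2 Control libraries (10.3 and 10.5) fell inside the pMT range, and the log2 fold change was -4.88 (SE 0.44, adjusted p = 1.957e-05). Myh3, the embryonic myosin heavy chain, ran from 15.3 to 61.9 CPM with pMT (median 24.9). In Surgery 1 and 2 Myh3 was at 327 and 336 CPM, and in VitD 1, 2 and 3 at 1000, 345 and 113 CPM. Its log2 fold change was -3.83 (SE 0.50, adjusted p = 0.0002293). Actc1, the cardiac actin that fetal skeletal muscle also makes, lay between 16.7 and 31.5 CPM with pMT (median 23.3). The Surgery libraries held 187 and 179 CPM of Actc1, and the VitD libraries 449, 185 and 88.8 CPM (log2 fold change -3.18, SE 0.29, adjusted p = 1.815e-05). Tnnt2, the cardiac and embryonic troponin T, behaved alike at 2.18 to 6.12 CPM against 10.7 to 51.5 CPM (log2 fold change -2.68, SE 0.33). Every one of these genes was highest in VitD 1 and lowest, among libraries without pMT, in VitD 3.

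Wisp2, a secreted signalling protein of connective tissue, was at 1.29 to 2.56 CPM with pMT (median 2.01). Without pMT, Wisp2 was at 14.4 and 12.9 CPM after Surgery and at 20.4, 12.9 and 10.8 CPM with VitD (log2 fold change -2.80, SE 0.17, adjusted p = 3.284e-07). Mustn1, a small nuclear protein of regenerating muscle, stood at 61.2 to 117 CPM (median 73.8) with pMT and at 416, 405, 607, 417 and 335 CPM in Surgery 1 and 2 and VitD 1 to 3 (log2 fold change -2.48, SE 0.17, adjusted p = 9.614e-07). Serpina3n, a protease inhibitor induced by injury, had a log2 fold change of -2.64 (SE 0.20), with at most 1.67 CPM in the pMT arm and at least 5.39 CPM without pMT. Klk1, a tissue kallikrein that releases kinins, and Ctxn3, a small membrane protein, changed by -3.51 (SE 0.28) and -3.35 (SE 0.26). The remaining members of the 12, RGD1311744 and RGD1564861, changed by -2.95 (SE 0.31) and -2.69 (SE 0.29). Sln, sarcolipin, which slows the calcium pump of the sarcoplasmic reticulum, did not overlap either but was split within the pMT arm. It lay at 10.7, 10.4 and 9.97 CPM in pMT 4, pMT/VitD 1 and pMT/VitD 2 and at 0.33 to 1.55 CPM in the other 5 pMT libraries, against 13 to 53.9 CPM without pMT (log2 fold change -2.66, SE 0.76, adjusted p = 0.02319). Without VitD 1 the Sln change was -2.35 (adjusted p = 0.06612).

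**Figure D2:**
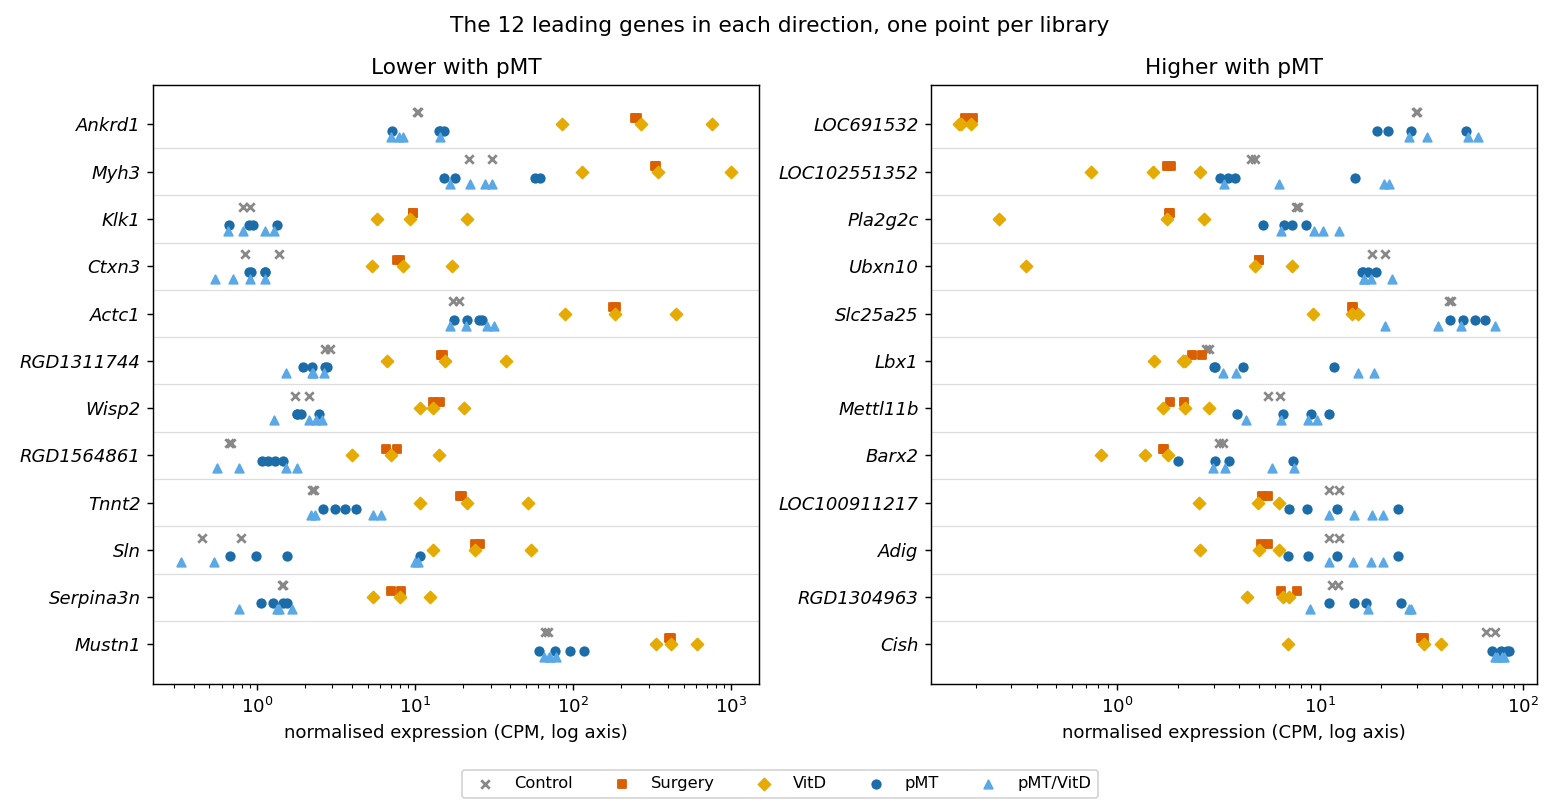
Normalised expression (CPM, log axis) of the 12 genes with the largest decrease and the 12 with the largest increase in the pMT arm, with each point a library and colours for the 5 groups. Ankrd1 lies between 7.04 and 15.3 CPM in the pMT arm and between 85.0 and 760 CPM without pMT.

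Many genes of denervated muscle were lower, and fewer of the neuromuscular junction. Of 21 tested members of a list of developmental and denervation-induced muscle genes, 14 were lower, 7 were not called and none was higher (median log2 fold change -1.13, against 0.00 over all genes), and for 11 members the arms did not overlap. Over all tested genes 14.0% were called lower, 9.24% higher, and 7.45% were lower without overlap, and the list counts below are read against these shares. Of 17 tested junction genes, 5 were lower, 1 higher and 11 not called (median -0.15). The acetylcholine receptor, which carries the nerve's signal into the fibre, supplied the largest of these. Chrna1, its alpha subunit, was at 4.5 to 7.11 CPM with pMT (median 5.05), at 13.9 and 14.5 CPM in Surgery 1 and 2, and at 24.7, 14.5 and 10.9 CPM in VitD 1, 2 and 3. The pMT libraries thus sat beside the Controls (4.85 and 5.23 CPM), and the log2 fold change was -1.46 (SE 0.17, adjusted p = 7.994e-05). Chrng, the gamma subunit of fetal and denervated muscle, was at 0.186 to 0.55 CPM with pMT. Without pMT, Chrng was at 2.06 and 1.34 CPM after Surgery and 3.9, 1.43 and 0.835 CPM with VitD (log2 fold change -2.37, SE 0.36). Chrnd, the delta subunit, was at 2.42 to 5.58 CPM against 6.84 to 20 CPM (log2 fold change -1.60, SE 0.24). Musk, the receptor kinase that clusters acetylcholine receptors, changed by -0.82, and Chrnb1, the beta subunit, by -0.21, both named after their values were seen. In contrast, Rapsn, which anchors the receptors, rose by 0.22 (adjusted p = 0.04599), a call that was lost on library size alone, where 0 junction genes were higher and 7 lower. Myog, the transcription factor myogenin, which drives receptor genes in denervated fibres, ran from 18.2 to 28.4 CPM with pMT (median 22.5), against 48.9 and 46.7 CPM after Surgery and 59.7, 47.4 and 44.9 CPM with VitD. Its log2 fold change was -1.11 (SE 0.11, adjusted p = 3.025e-05).

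Myogenic factors such as Myog bind the E-box, CANNTG, a pattern that a site matches on both strands or on neither. The 250 bases before the start of Chrna1 (chr3:78877354-78877603, minus strand), Chrnd (chr9:95310066-95310315, plus strand), Chrng (chr9:95325734-95325983, plus strand) and Myog (chr13:48297226-48297475, plus strand) in RefSeq on build GRCr8 are shown because these receptor genes and Myog fell together, with each E-box in capitals.
Chrna1: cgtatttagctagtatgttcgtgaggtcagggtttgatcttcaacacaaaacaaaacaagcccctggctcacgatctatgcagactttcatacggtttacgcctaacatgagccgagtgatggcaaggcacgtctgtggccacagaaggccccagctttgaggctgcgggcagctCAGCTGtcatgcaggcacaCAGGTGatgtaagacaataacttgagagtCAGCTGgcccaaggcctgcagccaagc
Chrnd: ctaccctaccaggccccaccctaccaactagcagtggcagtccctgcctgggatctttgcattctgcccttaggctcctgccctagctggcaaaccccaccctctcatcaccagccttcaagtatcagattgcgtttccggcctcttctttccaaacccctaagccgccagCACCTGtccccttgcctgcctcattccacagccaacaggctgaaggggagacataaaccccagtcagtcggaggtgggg
Chrng: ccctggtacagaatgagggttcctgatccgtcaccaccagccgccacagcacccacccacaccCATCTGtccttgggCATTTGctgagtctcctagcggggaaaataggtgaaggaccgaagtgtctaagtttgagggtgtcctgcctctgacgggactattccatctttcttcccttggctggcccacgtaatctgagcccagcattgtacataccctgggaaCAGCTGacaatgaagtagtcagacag
Myog: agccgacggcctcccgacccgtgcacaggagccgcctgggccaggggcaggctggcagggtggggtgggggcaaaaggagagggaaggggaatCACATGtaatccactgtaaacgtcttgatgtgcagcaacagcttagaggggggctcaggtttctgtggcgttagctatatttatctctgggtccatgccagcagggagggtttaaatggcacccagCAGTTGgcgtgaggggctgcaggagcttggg
Chrna1 held 3 E-boxes, whose first bases were 75, 56 and 27 bases before the start, Chrnd 1 (79 bases), Chrng 3 (187, 173 and 26 bases) and Myog 2 (157 and 31 bases). Of the 38 tested members of the junction and denervation lists, 29 had a promoter in the table and 21 of those (72.4%) held an E-box, against 17895 of all 27457 promoters (65.2%). A match describes the letters in the window and not binding.

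Immune genes were lower across several lists, and so were summed macrophage and T cell markers, some of which are members of those lists. Of 29 tested complement genes 18 were lower and 1 higher (median -0.85). C4a, a component of the classical pathway, was at 5.82 to 9.34 CPM with pMT (median 7.75), and at 39.1, 38.1, 44.9, 38.7 and 34.4 CPM in Surgery 1 and 2 and VitD 1 to 3. Its arms did not overlap (log2 fold change -2.39, SE 0.12, adjusted p = 9.895e-08), although C4a and C4b (-2.02) are near-identical and may share reads. C3, the central component, was at 0.679 to 1.22 CPM against 2.48 to 3.68 CPM (log2 fold change -1.75, SE 0.17). Masp1, a lectin-pathway protease, was the member that rose, by 0.65. Among 24 macrophage genes 17 were lower and none higher (median -0.89). Lyz2, lysozyme, was at 64.8 to 86.0 CPM with pMT against 158, 160, 243, 159 and 122 CPM without (log2 fold change -1.08, SE 0.13, adjusted p = 0.0001189). Gpnmb, a glycoprotein of macrophages that take up debris, changed by -1.76 (SE 0.21), and Fcgr2b, an inhibitory antibody receptor, by -1.93 (SE 0.21).

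All but 1 of the 10 tested MHC class II genes, which present peptides to helper T cells, were lower (median -0.80), and none of the 19 MHC class I genes was called (median -0.14), although 10 were lower on library size alone. Cd74, the class II invariant chain, ran from 197 to 268 CPM with pMT (median 230), and stood at 439, 430, 452, 418 and 412 CPM in Surgery 1 and 2 and VitD 1 to 3 (log2 fold change -0.91, SE 0.09, adjusted p = 3.496e-05). Its arms were tight and well apart, with both Controls (243 and 233 CPM) inside the pMT range. Among 19 lymphocyte genes 9 were lower (median -1.01; 5 without VitD 1), including Cd4 (log2 fold change -1.09, SE 0.15), which T cells and rat macrophages both carry. Of 28 chemokines and cytokines 13 were lower (median -0.47). Ccl6, which attracts monocytes, changed by -1.61 (SE 0.14), and Cxcl13, which attracts B cells, by -2.71 (SE 0.27). Interferon-stimulated genes gave 9 lower and 1 higher of 25 (median -0.35), or 6 and 1 without VitD 1, with Mx2, an antiviral GTPase, at -0.70. Summed CPM of the macrophage markers was 142 to 200 with pMT, 291 to 435 without and 176 to 178 in the Controls, with 6 of 6 tested markers lower. Lyz2, given above, is among these markers, at 64.8 to 86.0 CPM with pMT and 122 to 243 CPM without. This sum therefore partly repeats the macrophage list. The T cell markers summed to 19.3 to 39.5, 58.8 to 74.9 and 34.8 to 37.6 CPM, with 4 of 5 lower. Nearly all of that sum was Cd4, at 18.5 to 39.2 CPM with pMT, 57.8 to 71.9 without and 34.3 and 36.5 in the Controls. Because rat macrophages carry Cd4 too, the sum is not a level of T cells apart from macrophages. In whole muscle, fewer cells of a type and less RNA per cell cannot be told apart.

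Extracellular matrix genes were lower over the same libraries. Of 40 tested collagen genes 21 were lower and 1 higher (median -0.60), 13 and 1 without VitD 1, and of 37 matrix remodelling genes 24 were lower (median -0.83). Col1a1, the main chain of type I collagen, was at 306 to 602 CPM with pMT (median 382), at 1080 and 1050 CPM in Surgery 1 and 2, and at 1800, 1040 and 786 CPM in VitD 1, 2 and 3 (log2 fold change -1.47, SE 0.20, adjusted p = 0.0002632). Col3a1, the type III chain, was at 845 to 1480 CPM against 1910 to 3940 CPM (log2 fold change -1.17). For both genes the arms did not overlap. Postn, periostin, a matrix protein of healing tissue, was at 44.1 to 108 CPM with pMT and at 279, 294, 619, 320 and 197 CPM without (log2 fold change -2.33, SE 0.26, adjusted p = 6.161e-05). Eln, elastin, changed by -1.52 (SE 0.19). The collagen that was higher was Col7a1, the anchoring fibril chain (1.13). Of 11 proteoglycan genes 7 were lower (median -0.44), and of 18 fibroblast and myofibroblast genes 12 were lower and 1 higher (median -0.44). Without VitD 1, 6 fibroblast genes were called lower and none higher (median -0.35), and with pMT 4 and pMT/VitD 4 left out as well 10 were lower (median -0.39). Fibroblast markers summed to 937 to 1350 CPM with pMT, 1660 to 2770 without and 1250 to 1280 in the Controls, with 3 of 4 lower. Col1a1, given above, is among these markers and made up most of the gap, so the sum largely repeats the collagen result. Dcn, the other abundant marker, was at 536 to 830 CPM with pMT and 630 to 751 CPM without (log2 fold change -0.09, adjusted p = 0.6156). The part of cell numbers in the matrix result was not tested.

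Among 29 cell cycle genes 20 were lower and none higher (median -0.70), but without VitD 1 the count fell to 11. Mcm3, of the helicase that opens replication origins, was at 1.2 to 1.87 CPM with pMT and at 2.64, 3.17, 4.37, 2.35 and 2.26 CPM without (log2 fold change -1.05, SE 0.17). Cdkn1a, the p21 inhibitor of the cell cycle and a p53 target, moved the same way. It was at 7.93 to 13.8 CPM with pMT (median 10.9), at 55.9 and 54.2 CPM in Surgery 1 and 2, and at 115, 50.5 and 32.2 CPM in VitD 1, 2 and 3 (log2 fold change -2.43, SE 0.24, adjusted p = 2.271e-05). Of 19 p53 targets 4 were lower and 2 higher, and of 32 apoptosis genes 9 were lower and 4 higher (median -0.20), 5 and 4 without VitD 1, and 19 and 2 on library size alone (median -0.45). Apaf1, the scaffold of the apoptosome, changed by -0.56, whereas Fas, a death receptor, rose by 0.70 and Endog, a mitochondrial nuclease, by 0.57. Of 14 genes of IGF signalling 3 were lower, and the imprinted growth factor Igf2 changed by -1.09 (SE 0.23). H19, the non-coding RNA of the same imprinted locus, was at 3580 to 6390 CPM against 8990 to 11700 CPM (log2 fold change -0.98, SE 0.14).

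**Figure D3:**
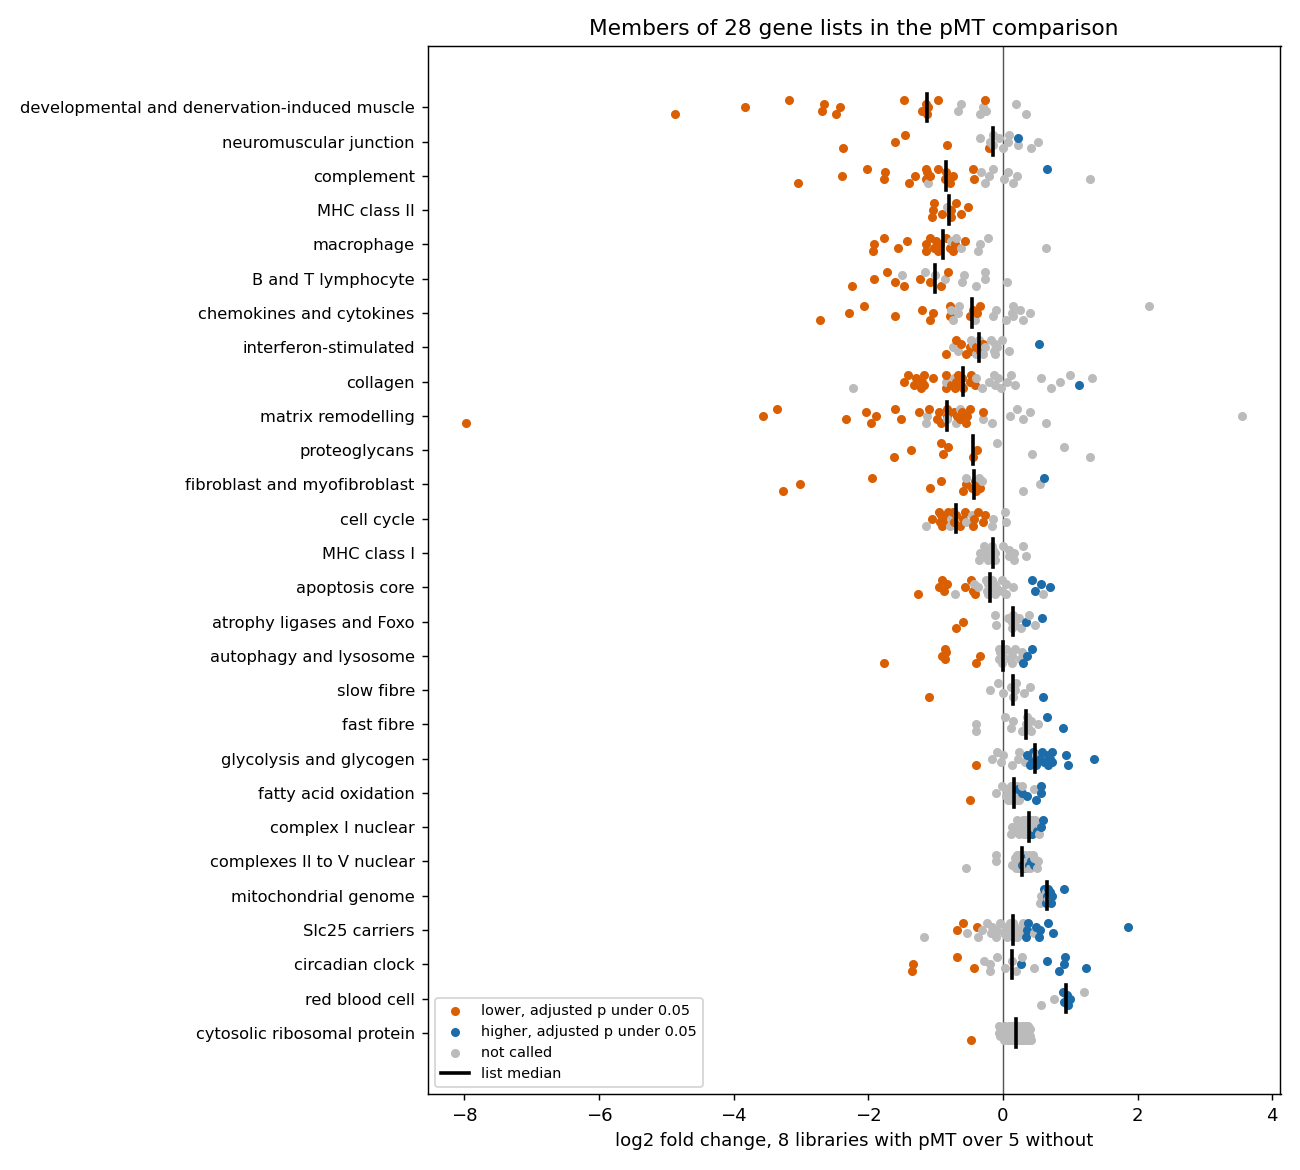
Log2 fold change of each tested member of 28 gene lists, pMT arm over the arm without pMT, with called members coloured by direction and a black bar at each list's median. Members of the denervation, complement, macrophage and matrix lists lie mostly below 0, and those of the glycolysis and respiratory chain lists mostly above 0.

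Of the called genes changed at least 2-fold, fewer were higher than lower. LOC691532 (gene 691532) was at 19 to 59.7 CPM with pMT (median 30.9), at 29.6 and 30 CPM in the Controls, and at only 0.165 to 0.195 CPM in all 5 libraries without pMT (log2 fold change 7.70, SE 0.38, adjusted p = 8.808e-08). RefSeq names it Rps25-ps11, a copy of the ribosomal protein gene Rps25 with which it may share reads, so its level is uncertain. It was near absent from exactly the 5 libraries without pMT, and whether the rats differed in genotype at this gene was not tested. Rps25 itself was not called (0.18, adjusted p = 0.5536). Slc25a25, a mitochondrial carrier that exchanges ATP-magnesium for phosphate, was at 20.9 to 72.7 CPM with pMT (median 50.2), at 14.4 and 14.5 CPM after Surgery and at 9.17, 14.3 and 15.4 CPM with VitD. Its arms did not overlap and the Controls (44.3 and 43 CPM) lay with pMT (log2 fold change 1.85, SE 0.24, adjusted p = 0.0001808). Cish, an inhibitor of cytokine and growth hormone signalling, was at 70.7 to 85.5 CPM against 32.4, 31.5, 6.93, 32.4 and 39.3 CPM (log2 fold change 1.44, SE 0.28, adjusted p = 0.002811). Pla2g2c, a secreted phospholipase, changed by 2.32 (SE 0.38), Mettl11b, a methyltransferase, by 1.81 (SE 0.26), RGD1304963 by 1.54 (SE 0.28), and Ubxn10, of a family that binds the p97 ATPase, by 1.99 (SE 0.43). Adig, a protein of fat cells, and LOC100911217 had nearly equal counts (log2 fold changes 1.56 and 1.57), so they may share reads.

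Some increases came largely from 3 libraries. Lbx1, a homeobox factor of limb muscle precursors, was at 11.7, 15.4 and 18.5 CPM in pMT 4, pMT/VitD 1 and pMT/VitD 2, at 3.01 to 4.17 CPM in the other 5 pMT libraries and at 1.52 to 2.61 CPM without pMT (log2 fold change 1.83, SE 0.51, adjusted p = 0.02026). Leaving out VitD 1 gave Lbx1 a log2 fold change of 1.68 (adjusted p = 0.05781), and leaving out VitD 2 one of 1.77 (adjusted p = 0.05268). LOC102551352 followed the same split, at 14.9, 20.7 and 21.8 CPM in those libraries, 3.2 to 6.3 CPM in the other pMT libraries and 0.744 to 2.55 CPM without pMT (log2 fold change 2.48, SE 0.58). Barx2, another homeobox factor of muscle, was at 7.32, 7.39 and 5.77 CPM in the same libraries and 1.99 to 3.57 CPM in the rest of the pMT arm (log2 fold change 1.59, SE 0.33). These 3 libraries were also those with the most negative relation to gene length and those in which Sln stood near 10 CPM.

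Genes of glycolysis and glycogen use were higher. Of 27 tested, 17 rose and 1 fell (median 0.48). On library size alone, which shifted all genes down, 9 rose and 3 fell. Ppp1r3c, which targets a phosphatase to glycogen, was at 505 to 676 CPM with pMT (median 605), at 245 and 247 CPM in Surgery 1 and 2, and at 142, 250 and 292 CPM in VitD 1, 2 and 3 (log2 fold change 1.35, SE 0.15, adjusted p = 5.99e-05). Slc16a3, which exports lactate, was at 280 to 322 CPM against 165, 167, 117, 153 and 180 CPM (log2 fold change 0.97, SE 0.10, adjusted p = 4.449e-05). The pMT values of both genes were close together and took in the Controls or lay just above them. Aldoa and Gapdh, among the most abundant transcripts of fast fibres, changed by 0.73 (SE 0.17) and 0.62 (SE 0.17). Hk1, a hexokinase, was the member that fell, by 0.40. Of 14 fast-fibre genes 2 rose: Myh4, the fastest myosin heavy chain (0.89, adjusted p = 0.02277), and Myoz1, which tethers calcineurin to the Z-disc (0.66).

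Some mitochondrial genes were called higher, and the number called varied with the libraries and scaling used. Of the 13 tested genes of the mitochondrial genome 8 were higher and none lower (median 0.65), and 4 were higher without VitD 1 (median 0.62) or on library size alone (median 0.38). With both libraries numbered 4 left out 11 were higher, and with VitD 1 left out as well 10. ND2, a complex I subunit, was at 7310 to 19200 CPM with pMT and at 5790, 6170, 6050, 6710 and 6440 CPM without (log2 fold change 0.90, SE 0.24, adjusted p = 0.01605). The share of all counts on the mitochondrial genome was 14.7% ± 4.0 (SD, n = 8) with pMT and 11.5% ± 0.958 (SD, n = 5) without, a difference of 3.16 percentage points that did not pass an exact permutation test within vitamin D strata (two-sided p = 0.0971, 525 splits, smallest possible 0.0019). Library pMT 4 alone reached 22.6%, and without it the difference was 2.03 points. Of 38 nuclear complex I genes 6 were higher (median 0.39), and of 42 genes of complexes II to V 6 were higher (median 0.28). Between pMT and Surgery the medians of these lists were 0.16 and 0.15, and between pMT/VitD and VitD 0.56 and 0.41. The shares called, 15.8% and 14.3%, stand against 23.2% called and 9.24% called higher over all tested genes. Without VitD 1 these counts were 2 and 0, on library size alone 1 higher in complex I and 2 lower in complexes II to V, and with the length trend removed 24 higher in complex I and 15 higher with 3 lower in the others. Ndufs7, an iron-sulphur subunit of complex I, changed by 0.51 (SE 0.12), and Cox5a, a subunit of complex IV, by 0.42 (SE 0.13). Between pMT and Surgery they changed by 0.25 and 0.20, and neither was called. Between pMT/VitD and VitD they changed by 0.72 and 0.60, and both were called. The mean log2 CPM of the complex I list ran from 6.68 to 7.61 within the pMT arm and only from 6.83 to 6.92 without pMT, so pMT libraries lay on both sides of the others. Of 40 mitochondrial carriers of the Slc25 family 9 rose and 3 fell, a balance that turned to 2 higher and 7 lower on library size alone. Slc25a4, the ADP/ATP carrier of muscle, rose by 0.50 (SE 0.14).

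**Figure D4:**
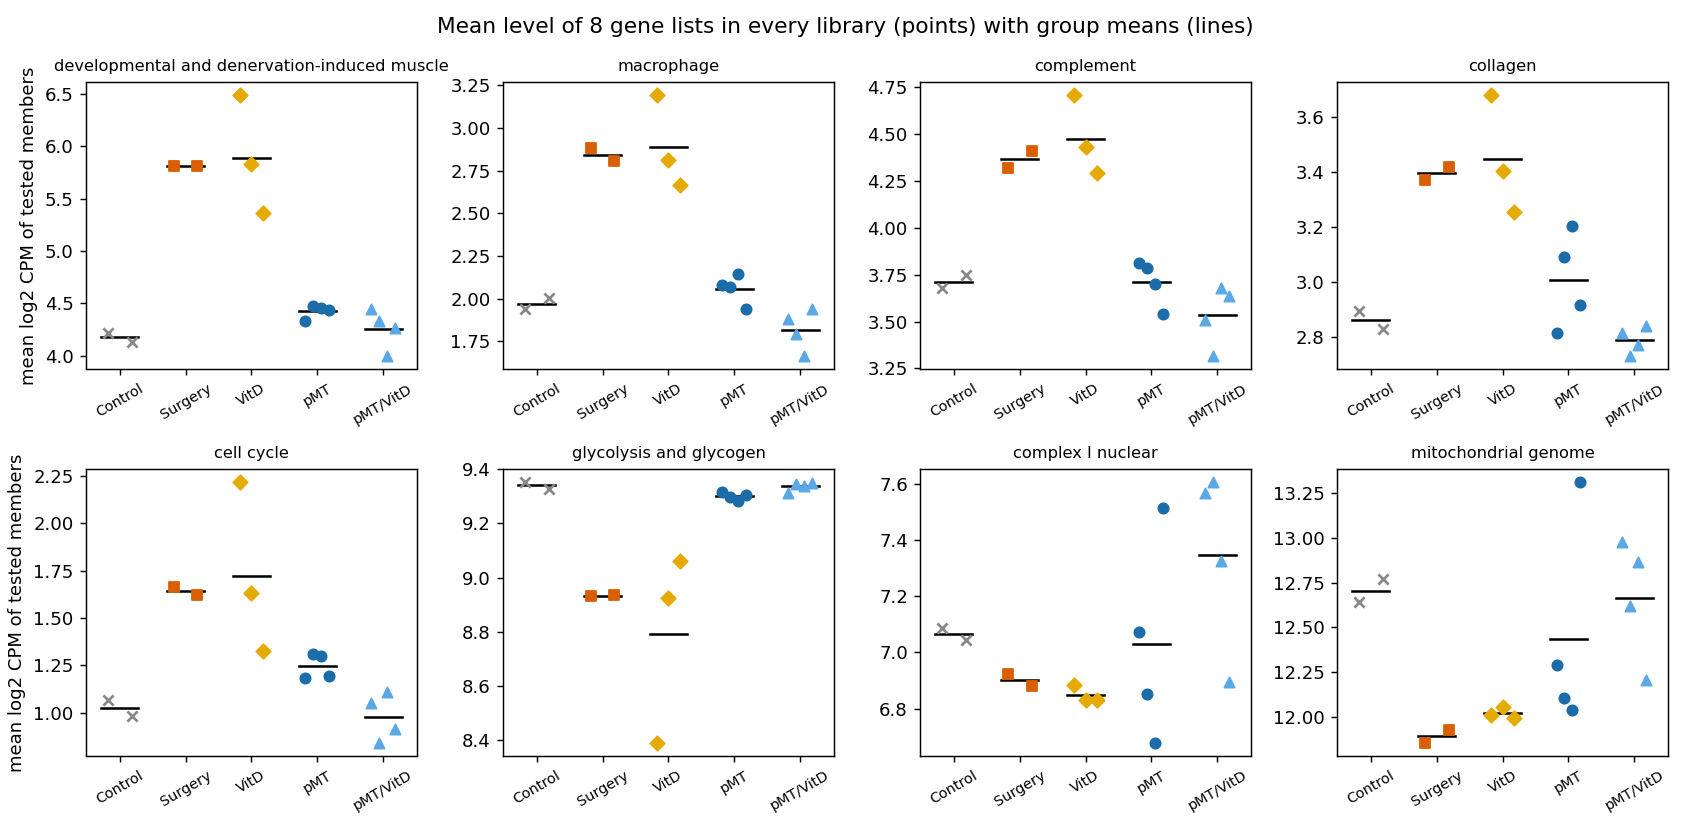
Mean log2 CPM of the tested members of 8 gene lists in every library, by group, with a line at each group's mean. The denervation list lies at 3.997 to 4.48 in the pMT arm and 5.36 to 6.49 without pMT, whereas the complex I list of the pMT arm (6.68 to 7.61) overlaps the rest.

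Genes of the circadian clock changed in both directions. Of 19 tested, 6 were higher and 4 lower (median 0.13, or -0.11 on library size alone). Dbp, an output gene that the clock's activators drive, was at 15.4 to 26.9 CPM with pMT (median 19.9), at 54.7 and 52.5 CPM in Surgery 1 and 2 and at 55.3, 48.8 and 46.8 CPM in VitD 1, 2 and 3 (log2 fold change -1.33, SE 0.12, adjusted p = 1.815e-05). Arntl, which encodes the activator BMAL1, was at 20.1 to 29.1 CPM with pMT and 13.1, 12.1, 11.5, 14.8 and 14 CPM without (log2 fold change 0.91, SE 0.10, adjusted p = 6.257e-05). Nfil3, a repressor that competes with Dbp, rose by 1.24 (SE 0.17) and Npas2, a partner of BMAL1, by 0.84 (SE 0.13). Ciart, a repressor of BMAL1, fell by 1.35 (SE 0.13), Per2, a core repressor, by 0.68 (SE 0.11), and Nr1d2, a repressor of Arntl, by 0.43 (SE 0.09). The arms did not overlap for Dbp, Arntl, Nfil3, Npas2, Ciart or Per2, and Controls lay with the pMT arm in Dbp and Arntl. The sources used here give no hour of tissue collection, so collection time and pMT cannot be told apart.

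Of 11 transcripts of the proteins blotted in the study, 2 were higher, 1 was lower and 8 were not called. The share called was 27.3%, against 23.2% over all tested genes. Des, desmin, the intermediate filament of muscle, was at 3820 to 5730 CPM with pMT (median 4600), at 3610 and 3580 CPM in Surgery 1 and 2 and at 2810, 3500 and 3780 CPM in VitD 1, 2 and 3 (log2 fold change 0.45, SE 0.12, adjusted p = 0.01731). On library size alone the Des change was 0.22 and was not called (adjusted p = 0.1551). Ppargc1a, the coactivator PGC-1α that promotes mitochondrial biogenesis, changed by 0.33 (SE 0.09, adjusted p = 0.01389), with 19.3 to 26.8 CPM overlapping 17.3 to 20.1 CPM, and by 0.09 (adjusted p = 0.6035) on library size alone. Myog, given above, had the largest change of the 11. The study's blots measured protein in control, surgery and pMT rats, whereas these values also pool rats given VitD. Between pMT and Surgery, Des changed by 0.18 (adjusted p = 0.7019) and Ppargc1a by 0.49 (adjusted p = 0.07744), and neither was called. Between pMT/VitD and VitD they changed by 0.67 (adjusted p = 0.006991) and 0.22 (adjusted p = 0.1681). Myog was called lower in both comparisons (-1.02 and -1.19). The other transcripts were not called: log2 fold changes were 0.32 for Prkaa2 and -0.22 for Prkaa1, catalytic subunits of AMPK, 0.16 for both Akt1 and Akt2, 0.33 for Cox4i1, a complex IV subunit, 0.39 for Foxo3, a driver of atrophy genes, 0.05 for Bax and 0.60 for Bcl2, which promote and block cell death. Bcl2 was scarce, at 0.183 to 0.497 CPM with pMT and 0.164 to 0.354 CPM without. Foxo3 ran from 1.96 to 12.5 CPM within the pMT arm and from 2.56 to 5.89 CPM without (SE 0.42). Trim63, the atrophy ubiquitin ligase MuRF1, was at 264 to 380 CPM with pMT and 261 to 319 CPM without (log2 fold change 0.14, adjusted p = 0.3744). Fbxo30, a ubiquitin ligase also linked to atrophy, was lower (-0.69).

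The design holds the pMT difference in 2 pairs of groups that share no library. Without VitD (4 pMT against 2 Surgery libraries) 214 genes were called (1.25% of those tested), 40 higher (0.234%) and 174 lower (1.02%). With VitD (4 pMT/VitD against 3 VitD libraries) 3410 were called (19.9%), 1367 higher (7.99%) and 2043 lower (11.9%). The pairs shared 205 genes, all in the same direction, which is 95.8% of the smaller set and 6.01% of the larger. Their reference libraries were in part alike, since Surgery 1, Surgery 2 and VitD 2 were the closest of all libraries. How far this likeness bears on the shared genes was not tested. Of the genes called with VitD, 3229 (94.7%) had the same sign without it, against 12722 (74.3%) of all tested genes. Ankrd1 changed by -4.29 without VitD and by -5.30 with it (adjusted p = 0.004712 and 0.0003858), and Slc25a25 by 1.92 and 1.80 (adjusted p = 0.03407 and 0.003625). The denervation list had medians of -1.02 and -1.19, and the cell cycle list -0.36 and -0.93. The unequal counts do not show that the pMT difference depended on VitD. In edgeR the interaction gave 0 calls (808 genes, 4.72%, at an unadjusted p under 0.05; 1 call in DESeq2). That count depended on how the libraries were weighted: limma voom gave 5139 calls with sample quality weights and 0 without them, and edgeR gave 780 with pMT 4, pMT/VitD 4 and VitD 1 left out. With both libraries numbered 4 left out, 332 genes were called without VitD, 5164 with VitD and 1 in the interaction. In that edgeR fit 3398 genes had an unadjusted p under 0.05 in the interaction, against 808 in the main fit. The pair without VitD also rested on its small arm, with 18 calls when Surgery 1 was left out and 590 when VitD 1, which is not in that pair but enters the shared spread, was left out. The pair with VitD fell to 1561 calls without VitD 1. The VitD term itself gave 0 calls in edgeR (375 genes, 2.19%, at an unadjusted p under 0.05; 1 call in DESeq2). With both libraries numbered 4 left out it again gave 0 calls in edgeR, but 2354 genes had an unadjusted p under 0.05. With VitD 1 left out as well, that number was 3050, with 0 calls.

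**Figure D5:**
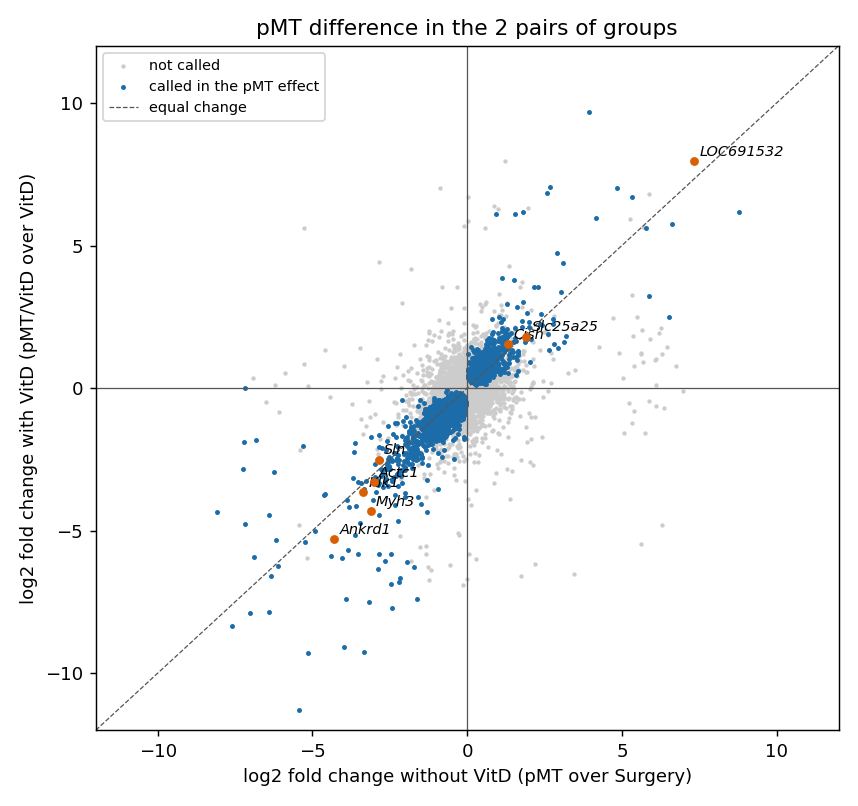
Log2 fold change of every tested gene between pMT and Surgery (horizontal axis) and between pMT/VitD and VitD (vertical axis), with genes called in the pooled pMT comparison in blue and a dashed line of equal change. Ankrd1 lies at -4.29 and -5.30 and Slc25a25 at 1.92 and 1.80, and genes called in the pooled comparison lie mostly in the lower left and upper right.

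Levels in the uninjured Controls lay nearer to the pMT arm for most of these genes. On the log2 CPM scale the mean of the 2 Controls was closer to the mean of the pMT arm than to that of the other arm in 3766 of the 3979 called genes (94.6%), against 12487 of all 17119 tested (72.9%). The share was 93.7% for genes higher with pMT and 95.2% for genes lower with pMT. It held for 23 of the 24 leading genes. With 2 Control libraries this was not tested.

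Checked against defining markers, the tissue was skeletal muscle in every library. Markers of muscle fibres summed to 149000 to 197000 CPM with pMT, 104000 to 155000 CPM without and 172000 to 186000 CPM in the Controls, with 1 of 8 higher. Red blood cell markers were higher with pMT in 3 of 3 (300 to 800 against 196 to 382 CPM), Hbb, beta globin, among them (log2 fold change 0.99, SE 0.25). Schwann cell markers summed to 114 to 146 CPM with pMT and 150 to 162 CPM without, with 1 of 6 lower, and adipocyte markers to 212 to 431 against 274 to 524 CPM, with 1 of 6 lower. B and plasma cell markers summed to 0.492 to 1.65 against 1.49 to 3.01 CPM, and smooth muscle markers to 78.5 to 140 against 106 to 162 CPM (2 of 3 lower). Of the bone and cartilage markers, Acan had no counts in any of the 13 libraries. The part of these cells in the differences between the arms was not tested.

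A few called genes were near absent from an arm. In 24 called genes every pMT library had at most 3 counts, and in 9 every library without pMT did. Chosen after their values were seen, Tnn, tenascin-N, had 0 counts in every pMT library and was at least 9.79-fold lower with pMT, against a floor of 3 counts per library, or at least 6.33-fold without VitD 1, which held 107 of its counts. Krt18, a simple epithelial keratin, also at 0 in every pMT library, was at least 6.87-fold lower, or 4.11-fold without VitD 1, which held 81 counts. In the other direction Sim1, a basic helix-loop-helix transcription factor, had 0 to 3 counts in the libraries without pMT, and most of its counts with pMT came from pMT 4 (73), pMT/VitD 1 (77) and pMT/VitD 2 (109), the same libraries in which Lbx1 was high.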

How the data were processed

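RNA from multifidus muscle was sequenced on an Illumina NovaSeq as paired-end reads. Upstream steps of the authors were trimming in Trimmomatic 0.38, alignment against rat build rn6 in HISAT2 2.1.0, sorting in SAMtools 1.9 and quantification of RefSeq genes in StringTie 2.1.3b. The authors deposited raw read counts with FPKM and TPM values for each library. Only the counts were tested. The deposited TPM values served only for relative gene lengths, and the deposited FPKM values were not used. Treatment of strand and of reads with several matches is not given in the sources used here.

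Analyses used R 4.3.3, edgeR 4.0.16, limma 3.58.1 and DESeq2 1.42.0. Of 37991 genes, 13263 had 0 counts in all libraries and 17119 passed filterByExpr over the 4 operated groups. TMM factors came from all 15 libraries. The 13 operated libraries were fitted with edgeR's robust quasi-likelihood model on pMT and VitD, and separately with 1 mean per group for the pairs and the interaction; 0.05 was the adjusted p threshold. CPM values use TMM library sizes, and log2 CPM a prior count of 2. Scripts were tested on simulated data. Total counts of 52342134 to 73557878 set the depth, and floors of 3 counts cover counting error only.

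The comparison and the 47 gene lists were chosen with earlier results of these data known, so no list was tested as a set. Named genes were, by size of fold change, the top 12 in each direction among called genes whose arms did not overlap and whose log2 CPM averaged 1 or more, up to 3 called members per direction and the 2 most abundant of each list, and the blotted proteins. Other genes named were chosen after their values were seen. Replicate numbers were not taken as pairs in the main fit. Of 16 pairs of same-numbered libraries, 3 had a correlation over 0.1 (range -0.87 to 0.37). In a group of 2 libraries the deviations from the group mean are mirror images, so these correlations cannot show that pairing was absent. Alternatives covered scaling, filters, tools, covariates, gene length and left-out libraries. Promoter sequences are from RefSeq on build GRCr8.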

Additional observations from a re-analysis of the deposited data

Results flagged for a closer look

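Within groups of 4 to 8 libraries, 148 sets of values over 37 measures were examined for a library far from the others by Dixon's criterion at the 95% level, and 21 were flagged where chance gives about 1 in 20 sets (7.4). Of these, 12 were VitD 1 among the 5 libraries without pMT. VitD 1 was high in Ankrd1 (760 CPM, the others 85.0 to 268), Myh3 (1000), Klk1 (21.4), Ctxn3 (17.2), Actc1 (449), RGD1311744 (37.5), Tnnt2 (51.5) and Myog (59.7 CPM, the others 44.9 to 48.9). It was low in Slc25a25 (9.17), Cish (6.93 CPM, the others 31.5 to 39.3) and Des (2810 CPM, the others 3500 to 3780), and its TMM factor was 1.19 against 1.08 to 1.11.

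Among the 4 libraries of the pMT group, pMT 4 was high in LOC102551352 (14.9 CPM), Lbx1 (11.7 CPM, the others 3.01 to 4.17), Sln (10.7 CPM, the others 0.676 to 1.55) and Akt1 (116 CPM, the others 97.1 to 99.4), low in Ankrd1 (7.1 CPM, the others 14.1 to 15.3), and had 22.6% of its counts on the mitochondrial genome (the others 11.1 to 12.9%). In the pMT/VitD group, pMT/VitD 4 was high in Foxo3 (11.5 CPM, the others 2.75 to 4.17) and had a TMM factor of 0.985 against 0.854 to 0.875, and it was high in Ubxn10 (22.7 CPM) among all 8 pMT libraries.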

How the results depend on the processing

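The pMT difference gave 2335 calls with a replicate block, 324 when folds were tested against 1.5, 755 with a fold of at least 2 also required, and 2742 to 4211 with 1 library left out. Other settings kept its count within 1.5 times of 3979. Without VitD the 214 calls became 337 (15 libraries fitted), 332 (both libraries numbered 4 out), 19 (replicate block), 334 (length trend removed), 674 (DESeq2), 6192 (voom with quality weights) and 1578 (pMT 4, pMT/VitD 4 and VitD 1 out), and 18 to 590 with 1 library left out. With VitD the 3410 became 5322 (library size only), 5164 (libraries numbered 4 out), 2026 (replicate block) and 8267 (voom with quality weights), and 1561 to 4162 with 1 left out. The interaction went from 0 to 1 (libraries numbered 4 out, and DESeq2), 5139 (voom with quality weights) and 780 (3 libraries out), and was 0 with any 1 library left out; VitD went from 0 to 1 in DESeq2. Unweighted voom and leaving out 3 libraries together were chosen after seeing the data. The mitochondrial share differed by 2.03 to 3.67 points with 1 library left out (p = 0.0657 to 0.209, exact permutation). Some changes of sign were seen in transcripts that were not called: on library size alone Akt1 was at -0.089, Akt2 at -0.0751 and Bax at -0.2146, and Bax was at -0.0634 with the length trend removed, -0.0071 in weighted voom, and -0.0242 to 0.1153 with 1 library left out (below 0 without pMT 4, pMT/VitD 1, pMT/VitD 2 or VitD 3). Of the 24 leading genes' values under the alternatives, 732 kept direction and call, 12 lost the call and 0 changed direction. The 24 had been chosen as called genes with large folds and arms that did not overlap. Their steady direction therefore follows largely from that choice and says little about other called genes. Causes were not tested, apart from fewer libraries where some were left out.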

Other observations

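Of 30 genes of TGF-beta and activin signalling 9 were lower and 3 higher (median -0.16), 6 and 1 without VitD 1. Of 24 endothelial and angiogenic genes 7 were lower and 4 higher (median -0.06). Lyve1, a hyaluronan receptor of lymphatic vessels and some macrophages, was at 9.33 to 14.5 CPM with pMT and at 26.1, 25.6, 37.7, 25.6 and 21.1 CPM in Surgery 1 and 2 and VitD 1 to 3 (log2 fold change -1.29, SE 0.14, adjusted p = 3.946e-05), whereas Vegfa, the main growth factor of blood vessels, was higher (0.69, SE 0.15). Of 19 adipocyte genes 4 were lower and 2 higher, with Scd, which makes unsaturated fatty acids, at -1.98 (SE 0.37). Of 17 Schwann cell and myelin genes 4 were lower and none higher, led by Cnp, a myelin enzyme, at 19 to 23.6 CPM against 31 to 42.6 CPM (log2 fold change -0.79, SE 0.09). Among 28 metallothionein and antioxidant genes 3 were lower and 3 higher, and Mt1, a metal-binding protein, changed by -1.93 (SE 0.26).

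Of 32 genes of calcium handling and ion channels 5 were higher and 4 lower. Casq2, the calcium-binding protein of slow and cardiac muscle stores, was at 65.5 to 111 CPM with pMT and at 162, 169, 336, 171 and 114 CPM without (log2 fold change -1.10, SE 0.21), whereas the potassium channel genes Kcnc1 and Kcna7 were higher (1.32, SE 0.23, and 0.59, SE 0.10). Of 36 genes of mitochondrial biogenesis and dynamics 8 were higher (median 0.20), and of 28 of fatty acid oxidation 7 were higher and 1 lower (median 0.17). On library size alone these became 1 higher and 3 lower, and 2 higher and 3 lower, with medians of -0.04 and -0.07. Of 23 autophagy and lysosome genes 7 were lower and 3 higher, of 32 proteasome genes 5 higher and 1 lower (0 and 3 on library size alone), of 24 heat shock and chaperone genes 4 lower and 3 higher, and of 15 atrophy ligases and Foxo factors 2 in each direction. Of 76 cytosolic ribosomal protein genes 1 was called (median 0.19, or -0.07 on library size alone). Of 8 genes of vitamin D metabolism 2 were higher and 1 lower, among them Cyp27a1, a 25-hydroxylase, at 0.55 (SE 0.08).

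Among smaller lists, myogenic regulators gave 4 lower and 2 higher of 13, slow-fibre genes 1 in each direction of 11, genes of AMPK, Akt and mTOR 4 higher of 27 (14.8% called, against 23.2% over all genes, and 0 higher and 4 lower on library size alone), activity-induced early genes 4 higher and 2 lower of 22, polyamine genes 2 higher and 1 lower of 13, kinin and kallikrein genes 1 higher and 2 lower of 5, bone and cartilage genes 2 higher and 1 lower of 4, and red blood cell genes 5 higher of 8.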
